A study of Mus musculus with 38 samples.

Results

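Cytosolic ribosomal protein genes encode the proteins of the small (40S) and large (60S) subunits of the ribosome. They were taken by symbol, as array probes annotated to a single gene whose symbol begins with Rpl or Rps plus a digit, or with Rplp, without the Rps6 kinase genes. By symbol, 63 probes for 62 genes met this among the 13443 probes of the table. Of these, 34 probes for 34 genes were measured in 3 or more mice per group and are the members described here, 12 for the 40S and 22 for the 60S subunit. Of all probes, 8319 (61.9%) passed the same requirement, against 54% of the ribosomal protein probes.

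The samples were spleen cells of DBA/2 mice. There were 5 untreated mice, and mice given 83 mg/kg of cyclophosphamide, a DNA-alkylating drug, into the peritoneum and studied after 1 day (4 mice), 2 days (5 mice) or 5 days (5 mice). RNA of each mouse was amplified, labelled with Cy5 and hybridised against 1 Cy3 reference for all arrays, described as a pool of marrow from untreated mice, although another field of the reference's label mentions the drug. Each mouse has 2 technical columns, which the design text describes as replicates within an array. A value is a log2 ratio of spleen to marrow pool (base 2 was taken, since no source used here states it): 0 means equal signal, and 1 means a 2-fold higher signal in spleen. The ratio gives no absolute level, so members were not ranked by abundance.

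Ribosomal proteins are made in near-equal amounts in every growing cell, and their transcripts are among the most abundant in lymphoid and erythroid cells. Most begin with a cytosine followed by a run of pyrimidines, the terminal oligopyrimidine tract, through which the mTOR pathway controls their translation. When ribosome assembly fails, free Rpl5 and Rpl11 can bind Mdm2 and stabilise p53. Loss of 1 copy of several of these genes causes Diamond-Blackfan anaemia, in which red cell precursors fail.

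Pyrimidine runs like those of that tract lie near the annotated starts of some members. Each line below gives 30 bases around the transcript start annotated by RefSeq in GRCm38.p6 (mouse), 15 on either side, on the strand of the gene. Capitals mark CTTTCC or CTTTTCC. The first 8 are the measured members with such a run in the windows read, and Rps18 is shown because the results below describe it in detail. Counted from the annotated first base, the marked run begins from -12 (Rpl4) to 10 (Rpl13a), and in none of the 8 at that base. A mark alone therefore does not show that a transcript begins with the tract.
Rpl28, chr7:4792950-4792979, plus strand: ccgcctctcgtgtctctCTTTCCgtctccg
Rpl15, chr14:18270972-18271001, minus strand: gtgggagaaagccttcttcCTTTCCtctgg
Rps27, chr3:90213634-90213663, minus strand: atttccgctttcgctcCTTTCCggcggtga
Rpl35, chr2:39005117-39005146, minus strand: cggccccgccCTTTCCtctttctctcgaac
Rpl13a, chr7:45128731-45128760, minus strand: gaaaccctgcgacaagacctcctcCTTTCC
Rpl27a, chr7:109519180-109519209, plus strand: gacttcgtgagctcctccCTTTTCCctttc
Rpl4, chr9:64173372-64173401, plus strand: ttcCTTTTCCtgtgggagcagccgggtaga
Rpl39l, chr16:10170213-10170242, plus strand: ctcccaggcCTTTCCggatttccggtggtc
Rps18, chr17:33955651-33955680, minus strand: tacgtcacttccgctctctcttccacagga

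A promoter sequence was found for 52 of the 62 genes and for 32 of the 34 members. CTTTCC stood on the gene's strand within 25 bases of the annotated start in 21.9% of the members' promoters and in 2.42% of 27025 promoters in all. On either strand of the whole 300-base window these shares were 37.5% and 26.3%. For CTTTTCC, whose letters hold no copy of CTTTCC, they were 25% and 8.13% on either strand. CCGGAAG, the core bound by ETS factors, was in 40.6% of the members' windows and 9.12% of all windows, and AAGATGG, the core bound by YY1, in 15.6% and 6.48%. These are matches of letters, and annotated starts can lie some bases from the true ones.

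The columns held 5829 to 10407 values each, with medians from -0.0212 to 0.0132. The 2 technical columns of a mouse correlated at 0.581 to 0.962 over all probes, below 0.7 in 3 mice (untreated 2 and 4, day 5 mouse 5). Spleen and marrow markers lay on the sides that the labels give: in untreated mice the median of 6 T cell genes was 0.04 to 0.57, that of 5 mature B cell genes 0.01 to 0.89, and that of 6 neutrophil and early granule genes -2.24 to -0.99. With bulk spleen RNA, fewer cells of a type and less RNA per cell cannot be told apart. The arrays' number limits the precision, and depth of signal is unknown, since no intensities were analysed.

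One property of the values bears on every result for these genes. On each array, a set of probes of different genes had almost the same log2 ratio. The level was read from 8 probes that are not members (for Hba-a1, Hbb-bt and Hbb-b2, Ppia, Tpt1, Ptma, Actg1, Myl12b, and Ifitm1 and Ifitm3). In every column, 3 to 8 of them lay within 0.01 of 1 probe among them, and their median was taken as the level. Most of these 8 are for transcripts known to be abundant, but the set was wider: the probe for Olfr143, an odorant receptor, was at the level in 36 of 38 columns, and those for Tmem70 and Prorsd1 in 27 and 23. This shared level ran from -0.92 to 0.20 between columns and differed by at most 0.0427 between the 2 columns of a mouse. It was -0.73 to -0.05 in untreated mice, -0.61 to -0.14 at day 1, -0.67 to 0.19 at day 2 and -0.90 to -0.42 at day 5, so the groups overlapped.

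Many ribosomal protein values sat at that level. Of 1209 values of the 34 members, 230 (19%) lay within 0.01 of it, against 1.26% of the values of all probes. Rps23, a protein of the decoding centre, was at the level in 34 of 38 columns, and Rpl6 in 33. Rps6, the substrate of the S6 kinases, and Rpl37a were there in 23, Rps27 in 22, Rps13 in 20 and Rpl35 in 19. Rpl13a and Rpl39 followed with 13 columns each, Rpl7a with 9 and Rps14 with 7. Each of the other 23 members was at the level in at most 4 columns. Rpsa, a 40S protein whose symbol does not meet the rule, was there in 21.

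**Figure D1:**
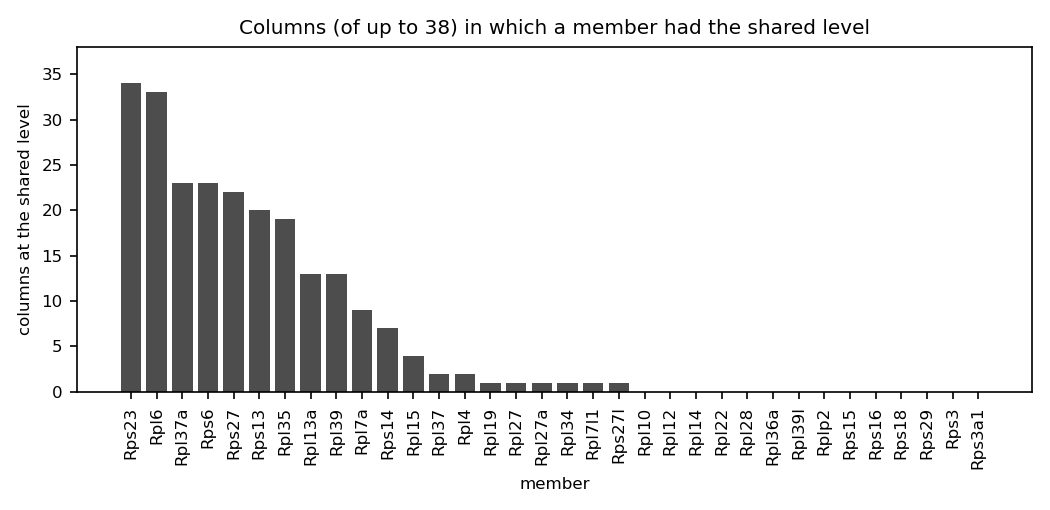
Bars give the number of technical columns (vertical axis, of up to 38) in which each of the 34 members (horizontal axis) lay within 0.01 of the shared level of the array. Rps23 (34) and Rpl6 (33) are highest, and 11 members reach 5 columns or more.

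By construction, a value counted at the shared level equals that of the array, as Rpl6 shows. In untreated mice 1 to 5, Rpl6 was at -0.64, -0.41, 0.12, -0.43 and -0.73, and the shared level at -0.70, -0.41, -0.05, -0.43 and -0.73. In day 2 mice 1 to 5, Rpl6 was at 0.19, -0.32, -0.62, -0.37 and -0.68, and the level at 0.19, -0.32, -0.62, -0.37 and -0.67. Rps23 gave the same day 2 values as Rpl6. Where both columns sat at the level, the gene's value and the array's level cannot be told apart. What sets the level was not tested.

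**Figure D2:**
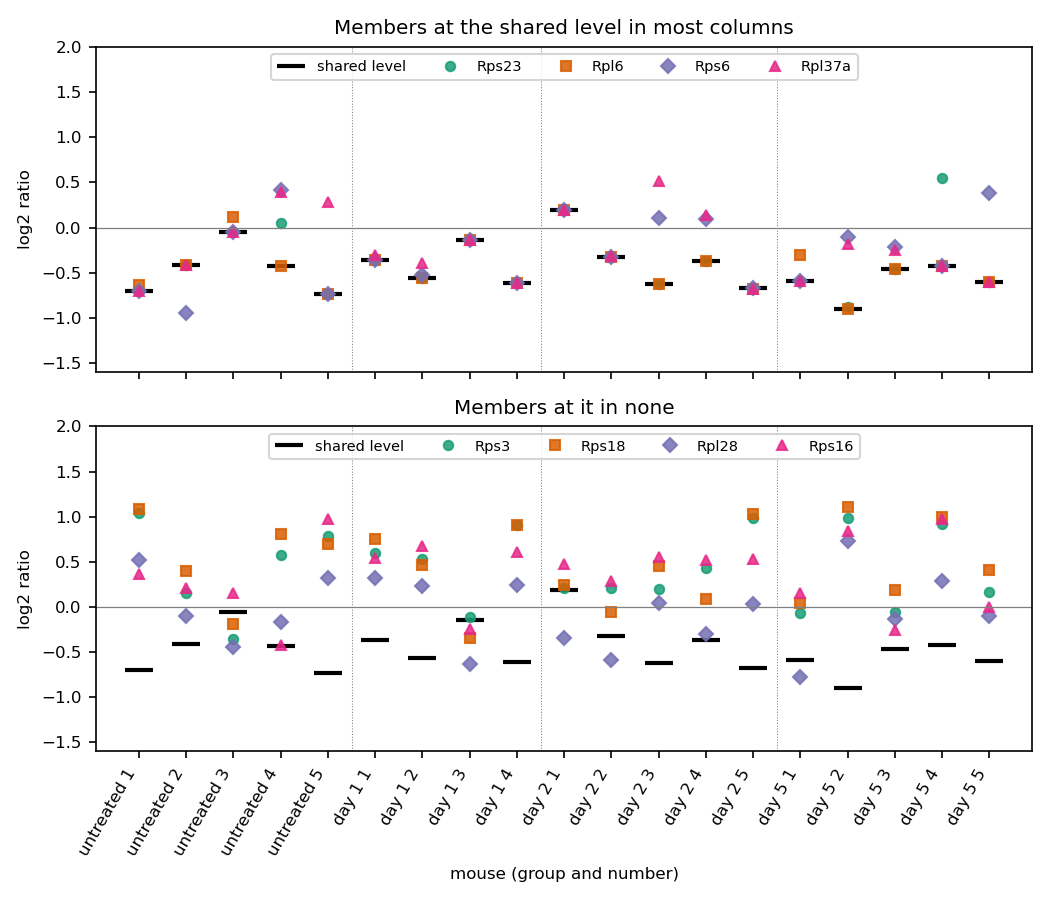
Log2 ratio of spleen to marrow pool (vertical axis) in each of the 19 mice (horizontal axis), with the shared level as black bars. Upper panel, 4 members at the level in 23 to 34 columns. Lower panel, Rps3, Rps18, Rpl28 and Rps16, which were at it in none and are among the members that moved together most between mice. Rpl39l, Rpl12 and Rpl14, also at it in none and with a value in every mouse, moved together less with the rest and are not shown.

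In untreated mice, 22 of the 34 members had a mean ratio above 0 and 9 were above 0 in every mouse measured. Among the 9, Rpl10 and Rps29 had values in 3 untreated mice each and Rpl22 in 4. The matching counts over all probes were not made. Rpl19, which lies by the exit of the peptide tunnel, was at 0.97, 0.95, 0.24, 1.46 and 0.96 (mean 0.92 ± 0.44, SD, n = 5). Rps15, a protein of the 40S head, averaged 0.75 ± 0.49 (SD, n = 5), and Rpl12, at the base of the stalk, 0.73 ± 0.38 (SD, n = 5). These were the highest means. Untreated mouse 3 had the lowest value in all 3, and their ranges overlapped, so their order is not beyond the spread between mice.

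The lowest untreated means belonged to members that were often at the shared level, namely Rps27 at -0.53 ± 1.04, Rpl6 at -0.42 ± 0.33 and Rps6 at -0.40 ± 0.57 (SD, n = 5 each). Of the 23 members at the level in at most 4 columns, 20 had a mean above 0. The level itself was below 0 in every untreated mouse (-0.73 to -0.05), so leaving out members often at it removes values below 0. No member was below 0 in all untreated mice.

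**Figure D3:**
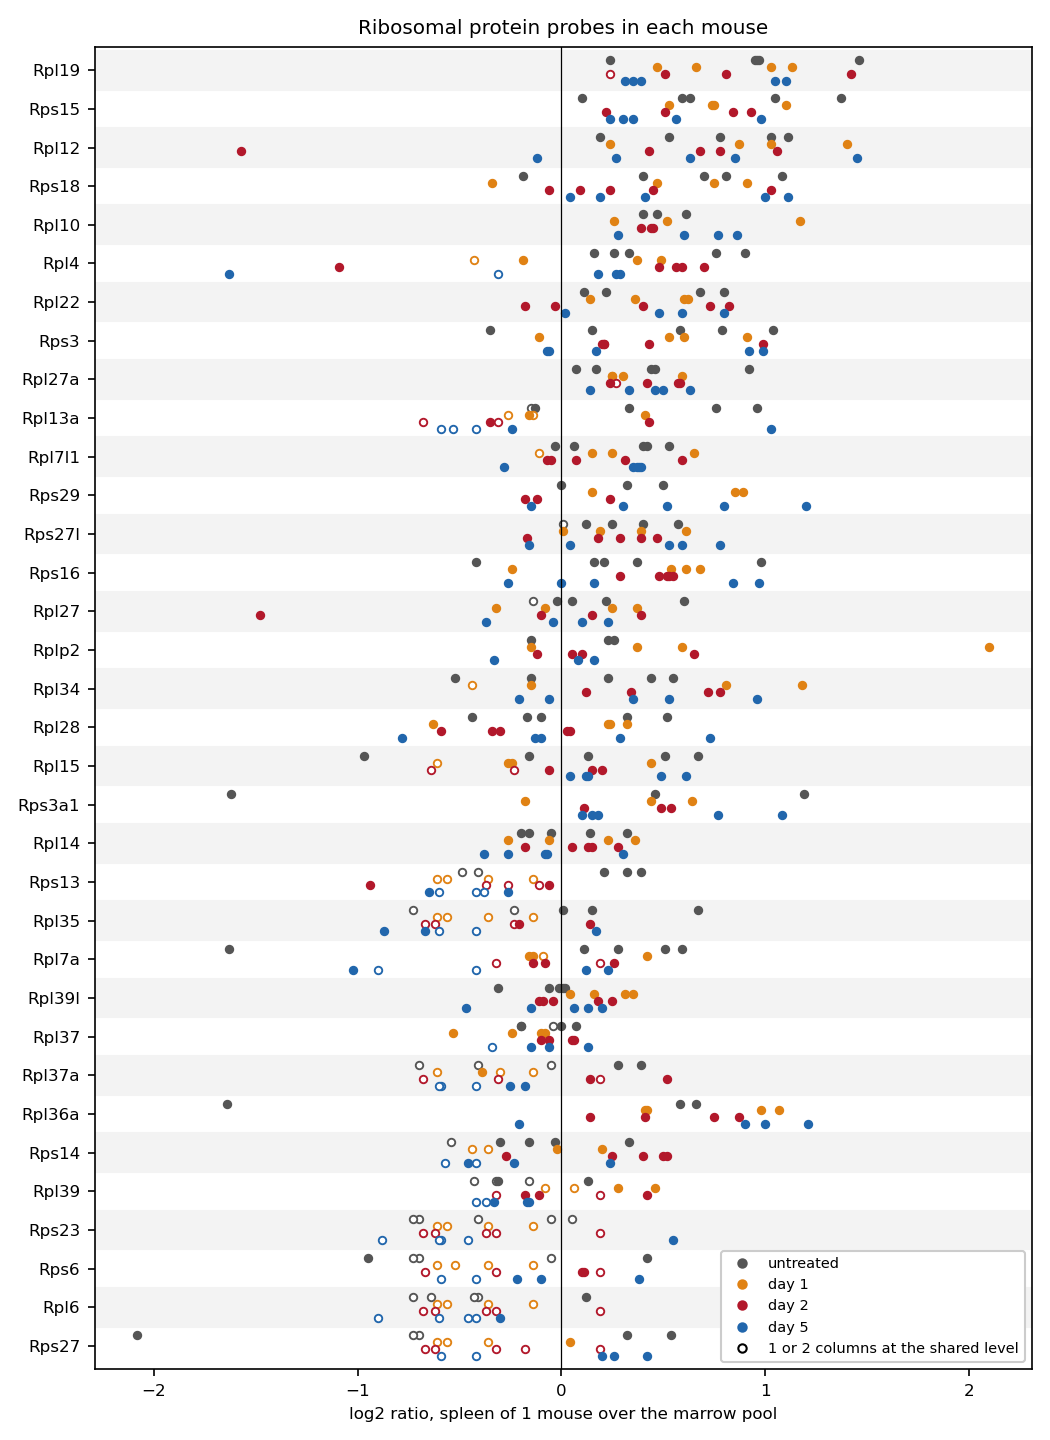
Log2 ratio of each mouse (horizontal axis) for the 34 members (rows, ordered by the untreated mean), with colours for the 4 groups. Open circles are mice in which 1 or 2 of the columns sat at the shared level; the groups overlap in nearly every row.

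The study asks how the spleen changes after the drug. No ribosomal protein probe passed an adjusted p of 0.05 in limma (Benjamini-Hochberg over all probes tested) in any comparison. At day 1 against untreated the count was 0 of 34, where 2.33% of all probes tested passed. At day 2 it was 0 of 34 beside 8.31% of all probes, and at day 5 it was 0 of 34 beside 0.0721%. Between day 2 and day 1 it was 0 of 34 beside 0.0601%, and between day 5 and day 2 it was 0 of 34 beside 5.3%. In limma's F-test for any difference among the 4 conditions it was 0 of 34, beside 6% of all probes. The 34 include 11 members at the shared level in 5 or more columns, where gene and array are hard to tell apart. Of the other 23, 0 passed in any comparison.

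Without adjustment, limma's p was under 0.05 for 2, 1 and 1 members at days 1, 2 and 5 against untreated, for 2 between days 2 and 1, for 1 between days 5 and 2, and for 2 in the F-test. Over all probes tested, unadjusted p was under 0.05 for 13.2%, 20.9% and 5.22% at days 1, 2 and 5, for 6.02% between days 2 and 1, for 18.3% between days 5 and 2, and for 16.9% in the F-test. At day 1 the median difference of the members was 0.01 on the log2 scale, with 18 above 0 and 16 below, and the median of all probes was 0.02. At day 2 the members' median was -0.01 (17 above 0, 17 below) and that of all probes 0.01. At day 5 the members' median was -0.03 (13 above 0, 21 below) and that of all probes 0.01.

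A probe that misses the threshold is not shown to be unchanged, so the intervals matter. The 95% interval of the difference lay within a 2-fold change either way for 28 members at day 1, 29 at day 2 and 28 at day 5, or 82.4%, 85.3% and 82.4% of them. Over all probes tested these shares were 89.4%, 87% and 94.5%. Within 1.5-fold either way lay 13, 12 and 14 members, or 38.2%, 35.3% and 41.2%, against 55.5%, 51.4% and 66.5% of all probes. For the other members a change beyond 1.5-fold lay inside the interval. These counts include 11 members at the shared level in 5 or more columns, whose intervals describe the array's level as well as the gene. Of the 23 members seldom at it, 18, 19 and 20 lay within 2-fold at days 1, 2 and 5. Within 1.5-fold lay 9, 8 and 10 of the 23. The members' spread was wider than usual: within groups, the median SD between mice was 0.428 for the 23 members seldom at the shared level and 0.266 for all probes tested, while the median SD between technical columns was 0.197 and 0.193.

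**Figure D4:**
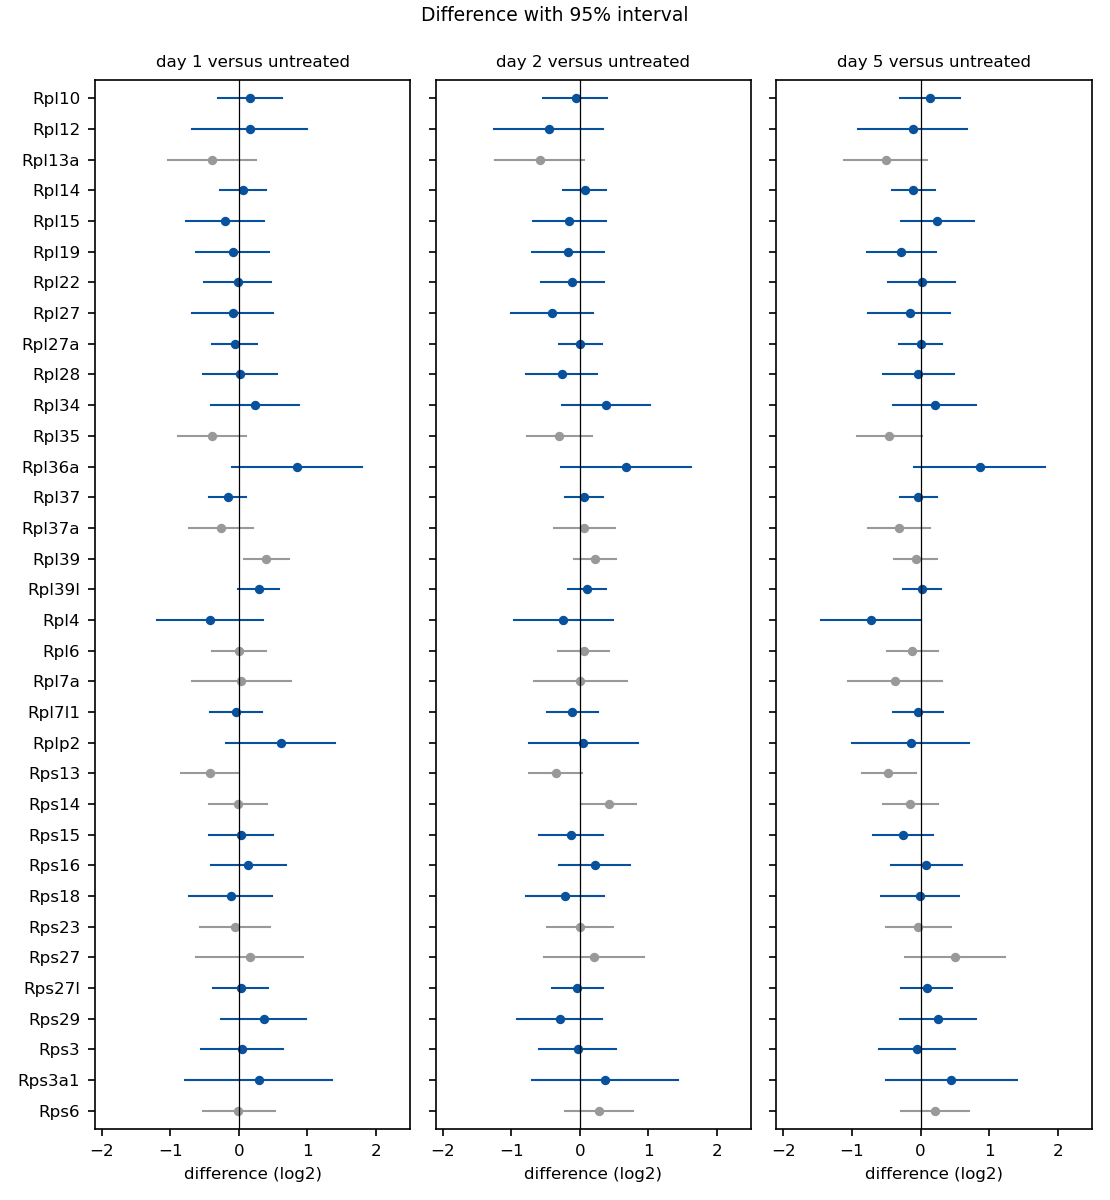
Difference from untreated on the log2 scale (horizontal axes, point and 95% interval from limma) for each member (rows) at days 1, 2 and 5. Grey marks the 11 members at the shared level in 5 or more columns; no member passed adjusted p 0.05.

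Among large subunit proteins of the peptide tunnel and its exit, Rpl39 had the smallest F-test p of all members (limma adjusted p = 0.214). It was at -0.32, -0.16, -0.31, -0.43 and 0.13 in untreated mice and at 0.46, 0.28, -0.08 and 0.06 at day 1. The day 1 mice were mostly higher, but the ranges overlapped. Their technical columns disagreed in mouse 1 (1.08 and -0.16) and in mouse 4 (-0.61, at the shared level, and 0.73). For this probe the SD between technical columns (0.349) exceeded that between mice within groups (0.226). The day 1 difference was 0.40 ± 0.16 (SE; limma adjusted p = 0.24), and 13 of the columns of this probe were at the shared level. At day 2 the difference was 0.22 and at day 5 it was -0.07.

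Rpl4, a protein of the tunnel wall, was at 0.16, 0.33, 0.26, 0.76 and 0.90 in untreated mice. At day 5 it was at 0.29, 0.18, -1.63, -0.31 and 0.27. Mouse 3 at day 5 was far below the others, and the groups overlapped. The difference of -0.72 ± 0.35 (SE; limma adjusted p = 0.923) was the most negative of any member against untreated. Without day 5 mouse 3 it was -0.376. Rpl35, at the tunnel exit, differed by -0.39 at day 1, -0.30 at day 2 and -0.46 at day 5 (limma adjusted p = 0.527, 0.49 and 0.923), with all 4 day 1 mice at the shared level in both columns and 19 columns at it in all.

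Rpl36a, a protein of the tRNA exit site, showed the most positive differences, 0.85, 0.68 and 0.86 at days 1, 2 and 5 (SE 0.45 each; limma adjusted p = 0.443, 0.425 and 0.923). It had 3 untreated values, 0.58, -1.64 and 0.66. The 4 day 1 mice were at 0.98, 0.42, 0.41 and 1.07. The low untreated mean came from mouse 3 and 1 technical column, and the other 2 untreated mice were inside the day 1 range. Without mouse 3 the probe had too few untreated values for the fit.

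In the stalk, the flexible arm of the 60S subunit that recruits the elongation factors, Rplp2 was the only measured member of Rplp0, Rplp1 and Rplp2. It was at 0.23, 0.26 and -0.15 in the 3 untreated mice with a value and at 2.10, 0.37, -0.15 and 0.59 at day 1. Mouse 1 of day 1 stood apart. The difference was 0.61 ± 0.37 (SE; limma adjusted p = 0.542), and it was 0.151 without day 1 mouse 1, whose value came from 1 technical column. At days 2 and 5 it was 0.05 and -0.14. Rpl12, at the stalk base, differed by -0.45 ± 0.38 (SE; limma adjusted p = 0.537) at day 2. Its day 2 values were -1.57, 0.78, 1.06, 0.43 and 0.68, and without mouse 1 the difference was 0.006.

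Rpl13a, which also takes part in silencing of inflammatory transcripts outside the ribosome, was at 0.33, -0.15, -0.13, 0.96 and 0.76 in untreated mice. The 4 day 2 mice with a value were at -0.35, -0.31, 0.43 and -0.68. The treated means were lower at each time, with overlapping ranges and differences of -0.39, -0.58 and -0.51 (limma adjusted p = 0.66, 0.297 and 0.923). Of its 36 columns 13 were at the shared level, among them both columns of day 2 mice 2 and 5 and of day 5 mice 1 and 4. Rpl27 differed by -0.40 ± 0.28 (SE; limma adjusted p = 0.449) at day 2, and without day 2 mouse 2, which was at -1.48, by 0.004. Rpl34 differed by 0.38 ± 0.31 (SE) at day 2 (limma adjusted p = 0.521).

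In the small subunit, Rps14, whose loss of 1 copy contributes to the anaemia of the human 5q deletion syndrome, came nearest to the threshold. Its values were -0.54, -0.03, -0.16, 0.33 and -0.30 in untreated mice and 0.50, 0.52, 0.25, 0.40 and -0.27 at day 2. At day 5 they were -0.57, -0.46, -0.23, -0.42 and 0.24. Of the day 2 mice, 4 were above every day 5 mouse, and mouse 5 was not. Day 5 lay below day 2 by 0.56 on the log2 scale (a difference of -0.56 ± 0.19, SE; limma adjusted p = 0.0988), and day 2 differed from untreated by 0.42 ± 0.19 (SE; limma adjusted p = 0.216).

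The call for Rps14 between days 5 and 2 depended on single mice and columns. The difference was -0.70 with limma adjusted p = 0.0411 without day 2 mouse 5, and -0.70 with 0.0435 without day 5 mouse 5. It was -0.70 with 0.0242 without the 3 mice of low technical correlation, and -0.83 with 0.0219 from technical column 1 alone. From technical column 2 alone it was -0.30, with limma adjusted p = 0.522. With values at the shared level left out (7 of its columns) it was -0.52, with limma adjusted p = 0.147.

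Rps13 was at 0.39, -0.41, 0.21, 0.32 and -0.49 in untreated mice, and at -0.36, -0.56, -0.14 and -0.61 at day 1. Both columns of all 4 day 1 mice were at the shared level, and 20 columns in all. The differences were -0.42, -0.35 and -0.47 at days 1, 2 and 5 (limma adjusted p = 0.37, 0.305 and 0.923). Rps29 had 3 mice with a value in each group before day 5. Its means were 0.27 ± 0.25 in untreated mice (SD, n = 3), 0.63 ± 0.41 at day 1 (SD, n = 3), -0.02 ± 0.23 at day 2 (SD, n = 3) and 0.53 ± 0.51 at day 5 (SD, n = 5). The day 2 mean was 0.65 below that of day 1 (a difference of -0.65, limma adjusted p = 0.816).

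Rps27 and Rps3a1 had the most positive small subunit differences at day 5, 0.50 ± 0.35 and 0.45 ± 0.45 (SE; limma adjusted p = 0.923 and 0.953). Each had 1 low untreated value, -2.08 in mouse 3 for Rps27 and -1.62 in mouse 2 for Rps3a1. Without untreated mouse 3 the Rps27 difference was 0.116, and 22 columns of this probe were at the shared level. The Rps3a1 value was the mean of technical columns at -3.22 and -0.03, in a mouse of low technical correlation. With array weights its day 5 difference was 0.188, and without mouse 2 it had too few untreated values for the fit. Rps3, singled out after its values were seen, sits at the entry of the mRNA channel. It had means of 0.44 ± 0.55, 0.48 ± 0.43, 0.41 ± 0.34 and 0.39 ± 0.53 in untreated mice and at days 1, 2 and 5 (SD, n = 5, 4, 5 and 5). Its differences from untreated were 0.04, -0.03 and -0.05, with 95% intervals from -0.55 to 0.64, -0.59 to 0.53 and -0.61 to 0.51.

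Of 11 paralogs and ribosomal-protein-like genes, 3 were measured. Rps27l, a paralog of Rps27 that p53 is known to induce, was at 0.57, 0.25, 0.01, 0.40 and 0.12 in untreated mice and at 0.01, 0.39, 0.19 and 0.61 at day 1. The groups overlapped fully. The differences were 0.03, -0.04 and 0.09 at days 1, 2 and 5, with 95% intervals from -0.37 to 0.43, -0.41 to 0.34 and -0.29 to 0.46.

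Cdkn1a, another p53 target, which blocks the cell cycle, was in the same fit. It was at -0.23, -0.74, 0.31, -0.19 and -0.03 in untreated mice and at 0.38, 1.04, 0.78 and 1.52 at day 1, with every day 1 mouse above every untreated mouse. It rose by 1.11 ± 0.24 (SE; limma adjusted p = 0.0159) at day 1 and by 0.80 ± 0.23 (SE; limma adjusted p = 0.0336) at day 2. The difference between the 2 genes was not tested.

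Rpl39l, a paralog of Rpl39 best known from testis, was the one member whose untreated and day 1 mice did not overlap (1 of 34, 2.94%, against 8.32% of all probes tested). It was at -0.01, 0.02, -0.31, -0.06 and 0.01 in untreated mice and at 0.04, 0.16, 0.35 and 0.31 at day 1. The difference was 0.29 ± 0.14 (SE; limma adjusted p = 0.395). Rpl7l1, which acts in large subunit assembly, differed by -0.04, -0.11 and -0.04 at the 3 times (limma adjusted p = 0.97, 0.778 and 0.991).

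Of 22 listed Diamond-Blackfan genes, 5 were measured (Rpl15, Rpl27, Rpl35, Rps27 and Rps29). None passed the test at days 1, 2 or 5, and their median differences were -0.09, -0.29 and 0.24, with Rpl35 and Rps27 at the shared level in 19 and 22 columns. Of Rpl5 and Rpl11, the genes of the Mdm2-binding particle, Rpl5 had values in 6 mice, too few per group. For Rpl11 there was no single-gene probe. The 12 measured members outside the naming rule (Rpl7a, Rpl10, Rpl14, Rpl15, Rpl22, Rpl27a, Rpl28, Rpl37, Rps3, Rps16, Rps18 and Rps23) differed from untreated by -0.20 to 0.16 at day 1, -0.26 to 0.22 at day 2 and -0.37 to 0.24 at day 5. Rpl37a, named for its F-test p (limma adjusted p = 0.62), was at the shared level in 23 columns. Among the 29 unmeasured probes, 4 had no value in any column, those for Rpl3, Rpl38 and Rps4x and a second probe for Rpl7l1.

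The members seldom at the shared level varied together between mice of 1 group. For the 12 of them with a value in all 19 mice, the mean correlation of deviations from the group means was 0.348 over 66 pairs of members (61 positive), and 0.013 over 5293 probes with a value in every mouse. Columns centred near 0 hold the mean over all probes near 0, so it does not show what another set of probes would give. Rps3 and Rps18 were the closest pair (r = 0.94), then Rpl28 and Rps18 (0.87) and Rpl28 and Rps3 (0.834). These are descriptions, with no test, of members that were read from the same array in each mouse.

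Rps3 and Rps18 were read from different probes and still followed each other mouse by mouse. In untreated mice Rps18 was at 1.08, 0.40, -0.19, 0.81 and 0.70, and Rps3 at 1.04, 0.15, -0.35, 0.58 and 0.79. At day 5 Rps18 was at 0.04, 1.11, 0.19, 1.00 and 0.41, and Rps3 at -0.07, 0.99, -0.06, 0.92 and 0.17. Among untreated and among day 5 mice the extremes differed by over 2-fold, more than any group mean differed from another for these genes.

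This common movement went with the shared level of the array in some members more than in others. The median of the 23 members seldom at the level was highest in day 5 mouse 2 (0.86), whose shared level was the lowest (-0.90). It was 0.00 and -0.06 in untreated mouse 3 and day 1 mouse 3, whose levels were -0.05 and -0.14. Other mice departed from this pattern: the median was 0.21 in day 2 mouse 1, which had the highest level (0.19), and 0.04 in day 5 mice 1 and 3, at levels of -0.59 and -0.46. As a description over 19 mice, deviations of this median from its group mean had r = -0.654 with those of the shared level. For Rps3 r was -0.654, for Rps18 -0.638, for Rpl12 -0.822 and for Rpl15 0.0299. It was also weak for Rpl39l (-0.0817), Rpl4 (-0.199), Rpl14 (-0.24) and Rps27l (-0.299). For Rps16, Rpl27a, Rpl28 and Rpl7l1 it was -0.415, -0.529, -0.625 and -0.653. The part of the shared level in the common movement was not tested.

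Other genes of ribosome production and use were taken from pathway lists, with 1 probe a gene. Of 67 ribosome biogenesis genes, 29 were measured. None rose, and 1 of the 29 fell at day 1, where 2.33% of all probes passed, so 1 call is near the background. The gene was Nop58, a core protein of the box C/D particles that methylate ribosomal RNA (-0.71 ± 0.18, SE; limma adjusted p = 0.0325). It was at 0.28, 0.08, 0.32, 0.19 and 0.19 in untreated mice and at -1.03, -0.29, -0.46 and -0.21 at day 1. At day 2 none passed, and the smallest p belonged to Nop2 (-0.71, limma adjusted p = 0.0599) and Nop16 (0.40, 0.062). None of 7 measured RNA polymerase I genes passed at any time, nor did any of 6 elongation and release factors.

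Of 39 initiation factor genes, 15 were measured, of which 1 passed at day 1 and 2 at day 2, beside 2.33% and 8.31% of all probes. So few calls in a list of this length are near the background. The 15 genes had medians of -0.19 at day 1 and -0.25 at day 2. Eif3j1, a loosely bound subunit of eIF3, fell at day 1 (-0.62 ± 0.15, SE; limma adjusted p = 0.0268) and at day 2 (-0.52 ± 0.14, SE; limma adjusted p = 0.0235). Pabpc1, the poly(A)-binding protein and itself a product of a terminal oligopyrimidine transcript, fell at day 2 (-0.91 ± 0.23, SE; limma adjusted p = 0.0213). It was at 0.08, -0.42, -0.05, -0.11 and 0.05 in untreated mice and at -1.54, -1.50, -0.21 and -0.75 in the 4 day 2 mice with a value.

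Of 19 genes of mTOR signalling, 8 were measured and 1 rose, Tsc2, which restrains mTOR complex 1, at day 2 (0.55 ± 0.16, SE; limma adjusted p = 0.04). At day 2, 8.31% of all probes passed, so 1 call in a list of this length is near the background. No gene of these pathway lists passed at day 5 against untreated.

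Marker lists of other cells and of division were read from the same fit, in which 2.33% of all probes passed at day 1 and 8.31% at day 2. Of 10 measured mitosis genes, 5 fell at day 1 and 6 at day 2, with medians of -1.15 and -1.36. Of 10 measured red cell precursor genes, 4 fell at day 1 and 7 at day 2, with medians of -1.08 and -1.21. The red cell list names Hba-a1, and the Hba-a1 probe used to read the shared level was at it in 35 of 38 columns. Of 7 macrophage genes 1 and 2 rose, and of 11 stroma and endothelium genes 2 and 2. Of 5 mature B cell, 6 T cell and 6 neutrophil and early granule genes, none passed at days 1 or 2, although the neutrophil medians were -0.61 and -0.47. No gene of these lists passed at day 5. The median of the mitosis list ran from -0.46 to -0.24 in untreated mice and from -2.61 to -1.39 at day 2, without overlap. The ribosomal protein median ran from -0.04 to 0.40 in untreated mice and from -0.01 to 0.26 at day 2, with overlap. The part of these cells in the ribosomal protein values was not tested.

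**Figure D5:**
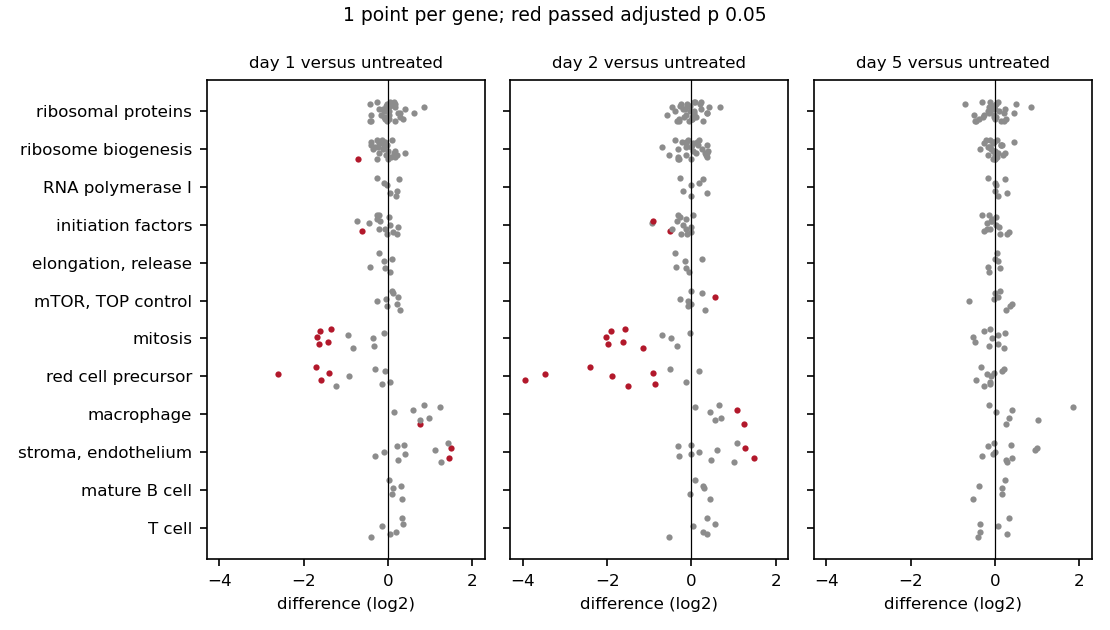
Difference from untreated on the log2 scale (horizontal axes) at days 1, 2 and 5, 1 point per measured gene, for the ribosomal proteins and 11 other lists (rows). Red points passed limma's adjusted p of 0.05; the ribosomal protein row holds none.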

How the data were processed

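The deposited values are log2 ratios (base 2 was taken, since no source used here states it) in a table of 38 columns, 2 for each of 19 mice, with each column's median near 0; how background was corrected and values normalized was not stated in any source used here. Probes were named from the array's platform annotation. Technical columns were averaged per mouse. limma 3.58.1 in R 4.3.3 was fitted to the 8319 probes with a value in 3 or more mice of each group, all 4 groups together, with Benjamini-Hochberg adjustment over all probes and a threshold of 0.05. The fit was tested on simulated data. The members and lists were chosen with earlier results of these data known. The rule named members with the 10 smallest F-test p-values, the 3 most positive and 3 most negative differences at each time, the 3 highest and 3 lowest untreated means, paralogs and the stalk, and, from each pathway list, called genes and those of smallest p. The shared level and its 8 probes were chosen after the data were seen. Mice were harvested independently, per the design text. Alternatives (scaling of columns, filters, technical columns, weights, blocks and mice left out) are in the closing section.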

Additional observations from a re-analysis of the deposited data

Results flagged for a closer look

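In the groups of 4 or 5 mice of the 22 members named, 79 groups were examined for 1 mouse far from the rest (Dixon's ratio, 95% level), and 5 were found; chance gives about 1 in 20. Rpl4 was at -1.09 in day 2 mouse 2, where the other day 2 mice ran from 0.48 to 0.70, and its 2 technical columns gave -0.79 and -1.38. Rpl12 was at -1.57 in day 2 mouse 1 (columns -1.94 and -1.20), with the others from 0.43 to 1.06. Rpl13a was at 1.03 in day 5 mouse 2 (columns 0.99 and 1.07), with the others from -0.59 to -0.24. Rpl7l1 was at -0.28 in day 5 mouse 3, with the others from 0.35 to 0.39, and Rpl39l was at -0.31 in untreated mouse 3, with the others from -0.06 to 0.02. None of these values was at the shared level.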

How the results depend on the processing

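The count of ribosomal protein probes called stayed at 0 in the alternatives run for days 1, 2 and 5 against untreated and for day 2 against day 1. Between days 5 and 2 it was 1 (Rps14) from technical column 1 alone and 1 without the 3 mice of low technical correlation, and it ran from 0 to 1 as each mouse was left out. In the F-test it was 1 (Rps14, limma adjusted p = 0.0475) from technical column 1 alone. Whether the mouse numbers pair the mice was not tested. Over 27 same-numbered pairs the mean correlation of deviations was 0.00199, with single pairs from -0.253 to 0.349. With the number as a replicate block, 0 members were called in any comparison and the medians at days 1, 2 and 5 were 0.023, -0.033 and -0.038. With values at the shared level set to missing (chosen after seeing the data), 26 members stayed measured and 0 were called. Each median moved by less than the spread of mouse medians within groups (SD 0.204). Of 29 named differences, 20 kept their sign in the settings that could fit them (22 to 35 each) and 9 turned in 1 or more; none passed 0.05 there. Rpl13a, Rpl35, Rps13 and Rps27 could not be fitted with shared-level values missing, nor Rpl36a and Rps3a1 without their low untreated mouse. Tolerances of 0.005 and 0.02 around the shared level (chosen after seeing the data) put 18.3% and 19.7% of the members' values at it. Over the settings that used every mouse, calls among all probes ran from 76 (threshold 0.01) to 452 (all columns with the mouse as a random block) at day 1 against 194, from 316 to 974 at day 2 against 691, from 0 to 24 at day 5 against 6, from 0 to 27 for day 2 against day 1 (5), and from 83 (quantile normalization) to 730 for day 5 against day 2 (441).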
